A study of Mus musculus with 10 samples.

Results

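The genes examined were Nos2, Slc7a2, Ass1, Gch1, Acod1, Ptgs2 and Ptges, which make or feed the synthesis of nitric oxide, itaconate and prostaglandin E2. They are 7 of the 21887 protein-coding genes of the RefSeq table for GRCm38.p6, and were chosen by name. A peak was taken to belong to a gene when it overlapped the gene body extended by 10 kb on each side, called the window of the gene below. In the 9 peak lists together, 252 of 536143 peaks lay in these windows. RAW264.7 cells, a WT mouse macrophage line that arose from a male tumour induced by Abelson murine leukemia virus, were treated for 12 h with DMSO (the solvent), with LPS in DMSO (lipopolysaccharide, from the outer membrane of bacteria), or with LPS together with Skatole (an indole that gut bacteria make). Each group has 3 libraries of 200000 cells, all from this single line, and the labels do not say whether the libraries of a group came from separate cultures, so p-values measure the spread between these libraries, which may be technical. The assay was CUT&Tag, in which an antibody brings a transposase to a protein on chromatin, here p65 (RelA), one of the NF-κB proteins. The labels name a p65 antibody and the methods of the study an antibody against phosphorylated p65. A Blank sample without primary antibody was not analysed here. The lists measure binding and not RNA, so the cell type was not checked against its markers.

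NF-κB is held in the cytoplasm of resting macrophages and enters the nucleus when Toll-like receptors sense bacterial products. Nitric oxide is made from arginine by the inducible synthase Nos2, which needs the cofactor tetrahydrobiopterin. Itaconate is made from an intermediate of the citric acid cycle by Acod1, and prostaglandin E2 from arachidonic acid by Ptgs2 (cyclooxygenase 2) followed by Ptges. Most of these enzymes are well known as products of genes that LPS induces in macrophages.

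For each peak the lists gave a fold and a −log10 p. From both, the summit count was recovered, which is how many fragments overlapped the top of the peak, without correction for depth. The genome background is the expected number of fragments at a position without enrichment, and follows the depth of a library. It was 1.09 to 1.40 in the DMSO libraries, 2.23 to 2.34 in the LPS libraries and 2.26 to 2.39 in the LPS+Skatole libraries. The lists held 37551 to 43450, 55637 to 63498 and 78136 to 80153 peaks in the same order. Over that background the lowest summit that was called had 8 to 9 fragments in DMSO libraries and 11 in the others. The DMSO libraries were therefore shallower, a weak site needed a larger enrichment to be listed there, and depth and treatment cannot be told apart in raw peak numbers.

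The RefSeq promoter table for GRCm38.p6 had an entry for 5 of the 7 genes: Ass1, Gch1, Acod1, Ptgs2 and Ptges. Peaks covered the promoter entry of Acod1 in 3, 3 and 3 of 3 DMSO, LPS and LPS+Skatole libraries, and that of Ptgs2 likewise in 3, 3 and 3. No list had a peak over the entries of Ass1, Gch1 or Ptges. The 250 bases before the start sites of Acod1 (chr14:103046762-103047011, plus strand) and Ptgs2 (chr1:150099781-150100030, plus strand) are shown because p65 peaks overlapped these entries in every library. Capitals mark the letters GGAANTTCC in Acod1 and TTNNGNAA, a C/EBP pattern, in Ptgs2.
Acod1: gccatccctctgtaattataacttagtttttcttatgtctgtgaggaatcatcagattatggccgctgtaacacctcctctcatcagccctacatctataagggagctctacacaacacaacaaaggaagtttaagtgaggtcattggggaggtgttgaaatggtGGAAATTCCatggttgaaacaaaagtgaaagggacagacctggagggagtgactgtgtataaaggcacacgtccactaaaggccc
Ptgs2: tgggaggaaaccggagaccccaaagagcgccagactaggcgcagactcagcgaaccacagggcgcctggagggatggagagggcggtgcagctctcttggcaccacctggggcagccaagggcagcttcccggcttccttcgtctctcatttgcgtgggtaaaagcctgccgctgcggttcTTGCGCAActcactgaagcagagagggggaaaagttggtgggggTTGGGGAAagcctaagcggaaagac
The patterns were searched on both strands. GGAANTTCC, an NF-κB-like pattern of 9 letters, was added after the Acod1 sequence had been seen and occurs in 0.928% of the 32851 promoter entries. Its match in Acod1 lies at chr14:103046927-103046935, from position -85 to -77 relative to the start. The pattern TTNNGNAA occurs in 40.7% of all promoter entries. It was found in Ptgs2 at chr1:150099962-150099969 and chr1:150100006-150100013, once in the Gch1 entry and once in that of Ptges. The 10-letter κB consensus occurs in 8.46% of the entries and among these genes only in Gch1, directly before its start. The AP-1 pattern TGANTCA, present in 7.81% of the entries, was in none of the 5. Such matches are descriptions of the letters and not evidence of a site.

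The first comparison asked how many p65 peaks each treatment left at these genes. The 7 windows together held 15, 16 and 11 peaks with DMSO, 34, 29 and 33 with LPS, and 38, 38 and 38 with LPS+Skatole. No 2 groups overlapped. The means were 14 ± 2.65, 32 ± 2.65 and 38 ± 0 (SD, n = 3 each), which is 2.29 times more in LPS than in DMSO and 1.19 times more in LPS+Skatole than in LPS. The joint exact permutation test over the 280 divisions of the 9 libraries gave p = 0.00357, the smallest it can give, while each pair of groups gave p = 0.1 (exact, two-sided), the smallest for 3 libraries against 3. Over the 19505 protein-coding genes with a peak in any list, the ratios were 1.40 for LPS to DMSO and 1.24 for LPS+Skatole to LPS. Whether the members differed from all genes was not tested. With each list cut to its strongest peaks, as many as the shortest holds, the members' ratio was 1.62 for LPS to DMSO, against 1.01 over all genes, and 1.02 for LPS+Skatole to LPS, against 0.970 over all genes, with a joint exact permutation p of 0.0571. Both comparisons with DMSO share the DMSO libraries, and both with LPS the LPS libraries.

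The groups of single genes were then compared. Peak numbers did not overlap and were higher in LPS than in DMSO for 4 of the 7 genes, Ass1, Gch1, Acod1 and Ptges, against 12.2% of all genes with a peak. LPS+Skatole was above DMSO without overlap for 4 genes, Nos2, Ass1, Acod1 and Ptges, against 25.4% of all genes. With equal list lengths these counts fell to 2 and 1, where the shares over all genes were 3.09% and 3.56%. With thinned depth the counts fell to 2 and 2, against 4.74% and 12.9% of all genes. Between LPS+Skatole and LPS the values of all 7 genes overlapped, where 9.1% of all genes had more and 0.774% had fewer peaks in LPS+Skatole. With Benjamini-Hochberg adjustment over all genes, no gene of the genome could pass with 3 libraries against 3, and the smallest adjusted exact permutation p was 0.796, 1 and 0.390 for LPS to DMSO, LPS+Skatole to LPS and LPS+Skatole to DMSO. The length covered by the peaks showed the same order of groups. It was 9.54 ± 0.881 kb in DMSO, 26.1 ± 0.379 kb in LPS and 34.6 ± 0.395 kb in LPS+Skatole libraries (SD, n = 3 each), 2.74 times more in LPS than in DMSO and 1.32 times more in LPS+Skatole than in LPS, against 1.42 and 1.19 times over all genes (exact permutation tests of each pair of the members' totals, p = 0.1).

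**Figure D1:**
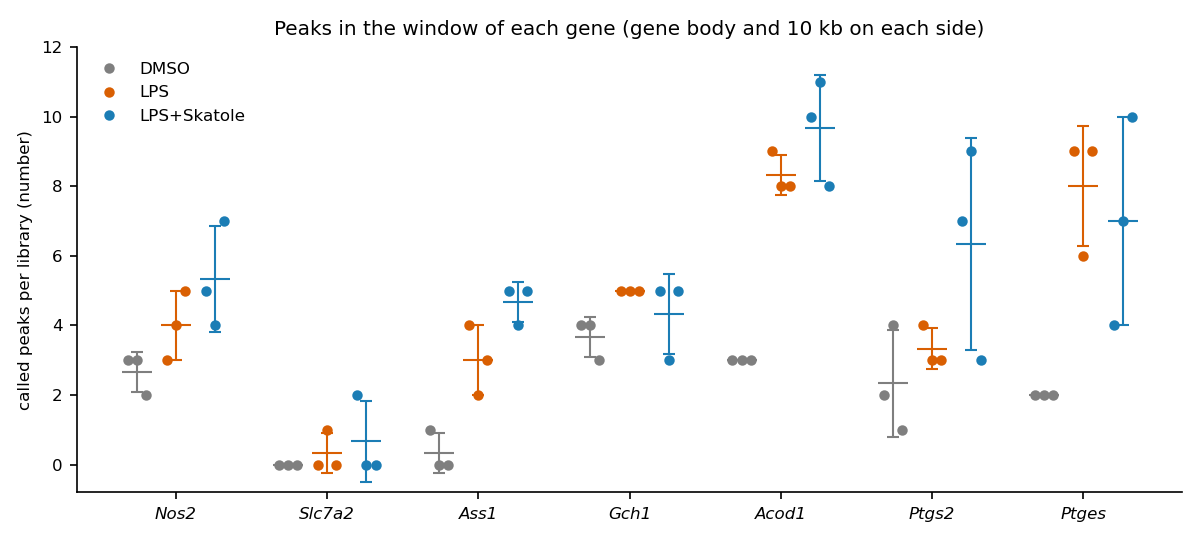
Number of called p65 peaks (vertical axis) in the window of each gene (horizontal axis), with 1 point per library, a line at the group mean and bars of 1 SD (n = 3 libraries per group). Acod1 went from 3 peaks in each DMSO library to 8 or more in each LPS and LPS+Skatole library, while Slc7a2 had 0 in all DMSO libraries and at most 2 elsewhere.

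Nos2, the inducible nitric oxide synthase, lies at chr11:78920787-78960226. Its window also takes in part of Lgals9. It held 3, 3 and 2 peaks with DMSO, 3, 4 and 5 with LPS and 5, 4 and 7 with LPS+Skatole. The 3 groups did not pass the joint exact permutation test (p = 0.0786). Of the 14 Nos2 regions (stretches in which peaks of different libraries overlap), 2 were called in all 9 libraries and 11 in 1 library only.

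The main Nos2 region, chr11:78918466-78923602, spans the lower-coordinate end of the gene, where transcription starts. Its summit count was 19, 19 and 22 with DMSO, 88, 122 and 112 with LPS, and 89, 85 and 88 with LPS+Skatole. All LPS and LPS+Skatole values lay far above all DMSO values. Relative to the genome background the summit was 15.7 ± 1.97 times in DMSO, 47.0 ± 8.26 times in LPS and 37.5 ± 0.657 times in LPS+Skatole libraries (SD, n = 3 each). After scaling to the median of all regions called in all 9 libraries, the limma fit gave a 3.49-fold rise in LPS (log2 1.80 ± 0.26 SE, adjusted p = 2.7e-05), the 11th largest of 13824 regions, and a 2.38-fold rise in LPS+Skatole against DMSO (log2 1.25 ± 0.26 SE, adjusted p = 0.00207). Within the lists, ordered by −log10 p, the region moved from the 59.2 to 66.1 percentile in DMSO to 96.5, 98.8 and 98.0 in LPS and 95.5, 95.2 and 95.2 in LPS+Skatole.

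The LPS+Skatole libraries thus had a lower Nos2 percentile than any LPS library, the one region of the 10 called in all 9 libraries where these 2 groups separated downwards by percentile. With equal list lengths, 1 of 7 member regions tested was lower in this comparison, as were 1015 of the 11651 regions tested over the series. On the scaled summit count the difference was a log2 change of -0.55 (95% interval -1.07 to -0.03), which limma did not call (adjusted p = 0.450). Scaled to the genome background it was -0.31 ± 0.26 (SE, limma adjusted p = 0.525). The summit lay at -10, -161 and -88 bases from the gene's start in DMSO, -119, -92 and -88 in LPS, and -46, -43 and -87 in LPS+Skatole. Exact permutation tests of the position gave p = 0.8 for LPS against DMSO and p = 0.1 for LPS+Skatole against LPS, where the nearest libraries of both groups were 1 base apart. The peak itself was 343, 527 and 707 bases long in DMSO and 1836 to 3295 bases in the other libraries. A second region, chr11:78915730-78918138, lay about 4.1 kb before the start, in sequence that the gene table assigns to no gene. It had summit counts of 10, 13 and 23 in DMSO, 43, 28 and 37 in LPS and 46, 45 and 51 in LPS+Skatole. These counts are not corrected for depth, and over the genome background LPS (12.6 to 18.7 times) overlapped with DMSO (9.18 to 16.9 times), and LPS+Skatole had 19.7 to 21.3 times. The limma fit called neither LPS (log2 0.69 ± 0.32 SE, adjusted p = 0.334) nor LPS+Skatole (log2 0.83 ± 0.32 SE, adjusted p = 0.112) against DMSO. The 1 further Nos2 region seen more than once, chr11:78932757-78933332 inside the gene, was called in 2 LPS libraries and nowhere else.

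**Figure D2:**
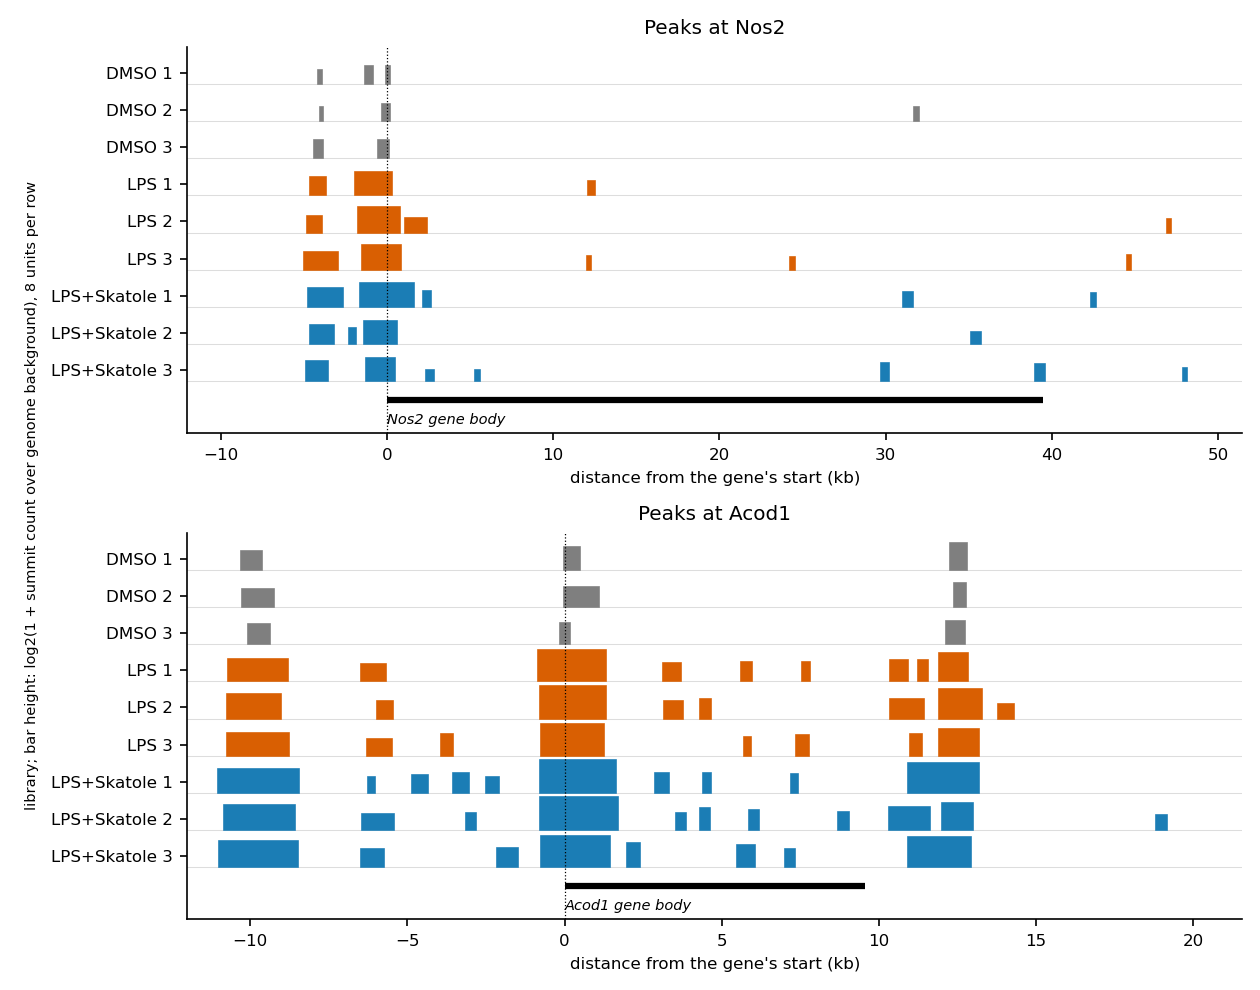
Peaks in the windows of Nos2 and Acod1 by library (rows), placed by distance in kb from the gene's start (dotted line), with bar width equal to peak length and bar height equal to log2(1 + summit count over the genome background). At Acod1 the peak at the start is taller and longer in every LPS and LPS+Skatole library than in any DMSO library, and the region 6.1 kb before the start is present in those 6 libraries only.

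Slc7a2, a transporter that brings arginine into the cell, lies at chr8:40862341-40922070. It had 0, 0 and 0 peaks in DMSO, 0, 1 and 0 in LPS and 2, 0 and 0 in LPS+Skatole libraries. Its 3 regions were each seen in 1 library, with a strongest summit of 14 and 15 fragments in the 2 libraries that had any, close to the lowest that can be called. No difference was detectable at this depth (joint exact permutation test, p = 1). Slc7a2 was the member with the fewest peaks.

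Ass1, argininosuccinate synthase, rebuilds arginine from citrulline, the by-product of nitric oxide synthesis. The gene lies at chr2:31470270-31520670. Its window had 1, 0 and 0 peaks in DMSO, 4, 2 and 3 in LPS and 5, 4 and 5 in LPS+Skatole libraries, and the joint exact permutation test gave p = 0.00714. DMSO did not overlap with either other group, whereas LPS and LPS+Skatole met at 4. The peaks were scattered: 16 of the 19 Ass1 regions were called in 1 library. Of the other 3, chr2:31473548-31475091 was called in 2 LPS+Skatole libraries (29 and 21 fragments) and chr2:31524598-31525145 in 1 DMSO and 1 LPS+Skatole library (10 and 17). The remaining one was chr2:31472553-31473210, about 2.5 kb inside the gene, where the summit count was 14, 19 and 19 with LPS, 40 in LPS+Skatole library 1 and no peak in the other 5 libraries. With equal list lengths the mean difference from DMSO to LPS fell to 0.333 peaks, from 2.67 in the full lists.

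Gch1, GTP cyclohydrolase 1, makes the first step towards tetrahydrobiopterin. It lies at chr14:47153895-47189413 and is read on the minus strand. It had 4, 4 and 3 peaks in DMSO, 5, 5 and 5 in LPS and 5, 3 and 5 in LPS+Skatole libraries (joint exact permutation test, p = 0.214). With equal list lengths the LPS to DMSO difference turned from 1.33 to -0.33 peaks. Of its regions, 3 were called in all 9 libraries, DMSO included. At chr14:47177291-47178489, in the gene and overlapping the pseudogene Gm18811, the summit was 23.9, 27.9 and 27.2 times the genome background in DMSO, 22.7, 22.0 and 20.1 in LPS and 26.5, 31.4 and 26.3 in LPS+Skatole. On this scale the median of all tested regions moves as well, by log2 -0.24 in LPS against DMSO and 0.24 in LPS+Skatole against LPS, and on the median scaling limma did not call the region in LPS+Skatole against LPS (log2 0.14 ± 0.27 SE, adjusted p = 0.898). At chr14:47186578-47189236, which ends just inside the start, it was 22.0, 37.9 and 47.8 in DMSO, 22.7, 19.8 and 25.2 in LPS and 22.2, 21.2 and 25.1 in LPS+Skatole. At chr14:47164826-47165847, about 24.0 kb downstream of the start and within the gene, the values of all 3 groups overlapped. The limma estimates of the 3 regions for LPS against DMSO were log2 0.15 ± 0.32, -0.05 ± 0.27 and -0.38 ± 0.29 (SE) from the lowest to the highest coordinate, with adjusted p of 0.897, 0.964 and 0.626.

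Acod1, the enzyme that makes itaconate, lies at chr14:103047012-103056573. Its start had the largest rise in summit count against DMSO among the member regions called in all 9 libraries. Its window held 3, 3 and 3 peaks in DMSO, 9, 8 and 8 in LPS and 10, 11 and 8 in LPS+Skatole libraries (joint exact permutation test, p = 0.0143). The region over the start site, chr14:103046129-103048712, had summit counts of 37, 33 and 36 in DMSO, 280, 340 and 329 in LPS and 368, 365 and 273 in LPS+Skatole. Every treated library was above every DMSO library, and LPS and LPS+Skatole overlapped. The limma fit gave a 5.84-fold rise in LPS (log2 2.55 ± 0.18 SE, adjusted p = 9.4e-12) and a 5.12-fold rise in LPS+Skatole (log2 2.36 ± 0.18 SE, adjusted p = 8.1e-11) against DMSO. These were the largest and the second largest rises of the 13824 regions in their comparisons. Between LPS+Skatole and LPS the log2 difference was -0.19 (95% interval -0.56 to 0.18, limma adjusted p = 0.759).

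Within the lists the Acod1 start moved from place 10621, 19575 and 13602 in DMSO to place 92, 41 and 69 in LPS and 49, 55 and 255 in LPS+Skatole. The percentiles were 71.7, 55.0 and 66.8 in DMSO and 99.7 to 99.9 in the other 6 libraries. The summit lay at +87, +87 and -44 from the start in DMSO, at -46 in all 3 LPS libraries, and at -46, -47 and -46 in LPS+Skatole (exact permutation test of LPS against DMSO, p = 0.1). The DMSO positions rest on 33 to 37 fragments and the others on 273 to 368, and the part of depth in their spread was not tested. The summits of all LPS and LPS+Skatole libraries lay 34 to 35 bases downstream of the centre of the capitals in the Acod1 sequence, and those of DMSO 168, 168 and 37 bases, the first pair beyond the end of the stretch shown. The overlapping non-coding gene Gm41235 has part of this region too, and binding at the start cannot be divided between them.

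The other Acod1 regions lay on both sides. Chr14:103040496-103041597, about 6.1 kb upstream, was absent from the DMSO lists and present in all others, with summit counts of 32, 36 and 32 in LPS and 28, 25 and 42 in LPS+Skatole. Chr14:103035945-103038571, about 9.8 kb upstream, had 21, 25 and 34 in DMSO, 69, 99 and 80 in LPS and 99, 110 and 132 in LPS+Skatole. It rose by limma in LPS (log2 1.03 ± 0.25 SE, adjusted p = 0.0239) and in LPS+Skatole (log2 1.23 ± 0.25 SE, adjusted p = 0.00231) against DMSO. The LPS call was lost in 5 of the 6 fits that left out 1 DMSO or LPS library (adjusted p up to 0.172), all but the one without DMSO replicate 3, and both calls on the fold over the local background (adjusted p = 0.184 and 0.0542). The LPS call was lost too with genome background scaling (adjusted p = 0.0618) and thinned depth (adjusted p = 0.0912). Chr14:103057309-103060312, beyond the far end of the gene and over Gm41236, had 73, 64 and 51 in DMSO, 195, 200 and 143 in LPS and 250, 153 and 241 in LPS+Skatole, and limma called it higher in LPS (log2 0.90 ± 0.22 SE, adjusted p = 0.0214) and in LPS+Skatole (log2 0.88 ± 0.22 SE, adjusted p = 0.0106). Over the genome background LPS (61.0 to 89.9 times) and LPS+Skatole (67.7 to 107 times) stood near or above DMSO (37.5 to 67.0 times). Its local background was 13.3 to 42.8 fragments in DMSO and 82.5 to 91.6 in the other libraries, and on the authors' fold over that background the change turned to log2 -0.25 and -0.31, neither called. The LPS call was also lost with genome background scaling (adjusted p = 0.0637) and without DMSO replicate 2 or 3 or LPS replicate 1 or 2 (adjusted p up to 0.133), and the LPS+Skatole call without DMSO replicate 3 or LPS+Skatole replicate 1 or 3 (adjusted p up to 0.0756). Of the regions inside Acod1 seen in more than 1 library, 4 were called in 1 or 2 LPS and 2 LPS+Skatole libraries each and in no DMSO library.

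Ptgs2, cyclooxygenase 2, lies at chr1:150100031-150108234. Its antisense neighbour Ptgs2os is in the same window. It had 2, 4 and 1 peaks in DMSO, 4, 3 and 3 in LPS and 7, 9 and 3 in LPS+Skatole libraries (joint exact permutation test, p = 0.125). The length covered by its peaks was 1.33 ± 0.395 kb, 2.55 ± 0.0754 kb and 5.31 ± 0.872 kb in DMSO, LPS and LPS+Skatole (SD, n = 3 each; joint exact permutation p = 0.00357, as also for Ass1 and Acod1). The region over the start, chr1:150098645-150103015, had summit counts of 15, 15 and 23 in DMSO, 46, 50 and 56 in LPS and 53, 75 and 70 in LPS+Skatole. DMSO was lower without overlap, and LPS and LPS+Skatole overlapped. The rise passed the limma threshold for LPS+Skatole against DMSO (log2 1.04 ± 0.30 SE, adjusted p = 0.0268) and not for LPS against DMSO (log2 0.93 ± 0.30 SE, adjusted p = 0.101), and the difference between those 2 estimates was log2 0.10 ± 0.30 (SE, limma adjusted p = 0.938). The LPS+Skatole call was lost without DMSO replicate 1 or 2, or without LPS+Skatole replicate 2 or 3 (adjusted p up to 0.107). It was lost as well on the fold over the local background (adjusted p = 0.0872) and with libraries thinned to 1 depth (adjusted p = 0.0830), where the LPS call was gained (log2 1.34, adjusted p = 0.0189).

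In the lists the Ptgs2 start stood at the 43.5 to 65.4 percentile in DMSO, 84.3 to 87.4 in LPS and 85.8 to 92.9 in LPS+Skatole. The summit lay between -296 and +111 in LPS and between -246 and +164 in LPS+Skatole. In DMSO libraries 1 and 2, a pair of peaks tied at 15 fragments, at -963 and -269 and at -190 and +1133, so no single summit position can be given there, and in DMSO library 3 it lay at -220. A second region, chr1:150105645-150108552 at the far end of the gene, was called in 1 DMSO, 2 LPS and all 3 LPS+Skatole libraries. Its summit counts were 10 in DMSO, 18 and 18 in LPS and 29, 30 and 24 in LPS+Skatole. These counts are not corrected for depth. Over the genome background they were 7.15 times in DMSO, 7.84 and 7.68 times in LPS and 12.4, 13.3 and 10.0 times in LPS+Skatole. The differences were not tested.

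Ptges, the inducible prostaglandin E synthase, lies at chr2:30889471-30931020 and is read on the minus strand. The RefSeq promoter entry has its start at 30903297, and the gene span reaches further upstream. It had 2, 2 and 2 peaks in DMSO, 9, 6 and 9 in LPS and 4, 7 and 10 in LPS+Skatole libraries (joint exact permutation test, p = 0.0464). Both LPS groups were above DMSO without overlap, and LPS+Skatole was the more variable. The start of the promoter entry had no peak. The regions called in every library of a group lay upstream of it. At chr2:30912282-30913880, about 9.9 kb before the start, no DMSO library had a peak, while the summit counts were 37, 28 and 28 in LPS and 45, 55 and 66 in LPS+Skatole. That is 11.9 to 16.1 times the genome background in LPS and 19.2 to 27.6 times in LPS+Skatole. The difference was not tested on this scale, where the median of the regions called in all 9 libraries moves by log2 0.24. Within the lists the region stood at the 68.2 to 79.0 percentile in LPS and 82.8 to 91.0 in LPS+Skatole (exact permutation test, p = 0.1). By place from the top of the list the 2 groups overlapped. The places were 11561, 17586 and 19887 in LPS and 13407, 9409 and 7161 in LPS+Skatole (exact permutation test, p = 0.2). At chr2:30924749-30925505, about 22.0 kb before the start and beside the pseudogene Gm13400, there was none in DMSO, 89, 95 and 134 in LPS, and 225, 143 and 146 in LPS+Skatole. The region chr2:30919957-30920795 was called in the LPS+Skatole libraries alone, with summit counts of 93, 58 and 76. In the other direction, chr2:30901968-30902524, chr2:30904982-30905834 and chr2:30909573-30910179 were each called in 2 LPS libraries and in no other, with summit counts of 15 to 31.

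The Ptges region present in all 9 libraries, chr2:30926559-30930502, had many fragments in DMSO already. Its summit count was 79, 140 and 162 in DMSO, 178, 170 and 174 in LPS and 230, 340 and 224 in LPS+Skatole, which is 72.5 to 119 times the genome background in DMSO, 74.2 to 77.6 times in LPS and 93.5 to 150.4 times in LPS+Skatole. Between LPS+Skatole and LPS, limma called no difference with either scaling (log2 0.31 ± 0.19 SE, adjusted p = 0.590, and 0.55 ± 0.19 SE, adjusted p = 0.115, scaled to the genome background, where the median of all regions is 0.24). The limma estimate for LPS against DMSO was log2 -0.09 ± 0.19 (SE, adjusted p = 0.891). Within the lists it stood at the 39.3, 63.6 and 86.2 percentile in DMSO, 97.8, 75.4 and 81.7 in LPS and 93.0, 58.7 and 98.5 in LPS+Skatole, with overlap of all 3 groups. Its local background was high and uneven, 13.5 to 206 fragments, and so was that of chr2:30919957-30920795 (11.4 to 49.6) and chr2:30924749-30925505 (16.7 to 28.6). That of chr2:30912282-30913880 equalled the genome background of each library.

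**Figure D3:**
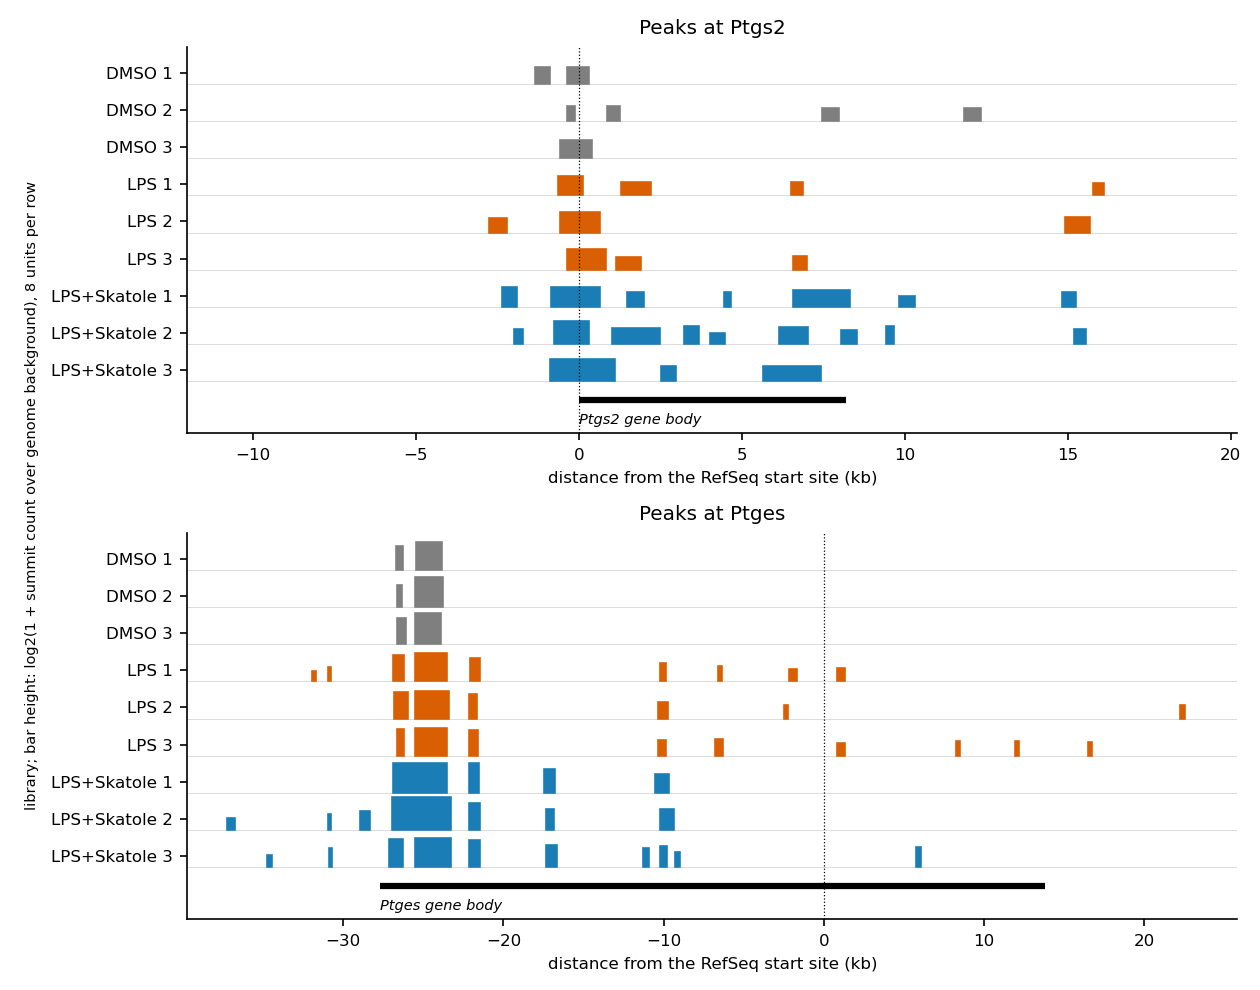
Peaks in the windows of Ptgs2 and Ptges by library (rows), placed by distance in kb from the RefSeq start site (dotted line), with bar width equal to peak length and bar height equal to log2(1 + summit count over the genome background). The tall Ptges peaks about 25.5 kb before the start are in all 9 libraries, and their local background is high and uneven. The peak about 9.9 kb before the start is in the 6 LPS and LPS+Skatole libraries only. Both places are inside the gene span.

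The regions were also counted by presence. The windows held 88 of 235070 regions, 10 of them called in all 9 libraries and 55 in 1 library only. That is 11.4% in all 9 and 62.5% in 1 library, against 5.88% and 71.3% over the series. Called in all 3 LPS libraries and in no DMSO library were 4 member regions, 1 at Ass1, 1 at Acod1 and 2 at Ptges, a pattern that 0.984% of all regions had. For LPS+Skatole against DMSO the number was 4 (1 at Acod1 and 3 at Ptges), against 1.85% of all regions. The Ass1 region gained in LPS was weak, with summits 6.10, 8.54 and 8.11 times the genome background. The lowest summits listed over that background were 6.44 to 7.34 times in DMSO libraries, so its absence there may reflect depth, which was not tested. LPS+Skatole gained the single Ptges region at chr2:30919957-30920795 over LPS, against 0.507% of all regions, and lost none, against 0.112%. That gain was not seen with equal list lengths, with thinned depth or at a −log10 p of at least 10.

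Among the 10 regions called in all 9 libraries, limma called 4 higher in LPS than in DMSO, against 1.48% of the 13824 regions tested: the starts of Nos2 and Acod1 and both flanks of Acod1. Higher in LPS+Skatole than in DMSO were 5, the same 4 and the start of Ptgs2, against 4.85%. Between LPS+Skatole and LPS, limma called 0 of the 10, where 0.0651% of all regions were higher and 0.101% lower. At an unadjusted p under 0.05 were 1 of the 10 (the Nos2 start) and 1423 of the 13824 regions. The median log2 change of the 10 in LPS against DMSO was 0.79, in LPS+Skatole against DMSO 0.86 and in LPS+Skatole against LPS 0.08, and over all tested regions -0.01, -0.02 and 0.00. Over all regions limma called 205 higher and 56 lower in LPS than in DMSO, and 98 higher and 509 lower when scaled to the genome background instead, a scaling that called 2 of the 10 members higher in LPS. For LPS+Skatole against LPS it called 159 higher and 6 lower, against 9 and 14 with the median scaling, and again 0 of the 10. By percentile within the list, 5 of the 10 were higher in every LPS than in every DMSO library (20.3% of all regions), 6 in LPS+Skatole than in DMSO (31.4%), and between LPS+Skatole and LPS 1 was higher (the Gch1 region at chr14:47177291-47178489; 14.2%) and 1 lower (the Nos2 start; 3.02%). By place from the top of the list that Gch1 region overlapped, at 6501, 7119 and 9035 in LPS and 7729, 5734 and 7840 in LPS+Skatole. The Nos2 start stayed apart, at 1941, 709 and 1274 in LPS and 3482, 3758 and 3795 in LPS+Skatole. The calls at the Nos2 and Acod1 starts against DMSO were kept in all fits that left out a library or changed the scaling, the merging, the threshold, the depth or the unit.

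**Figure D4:**
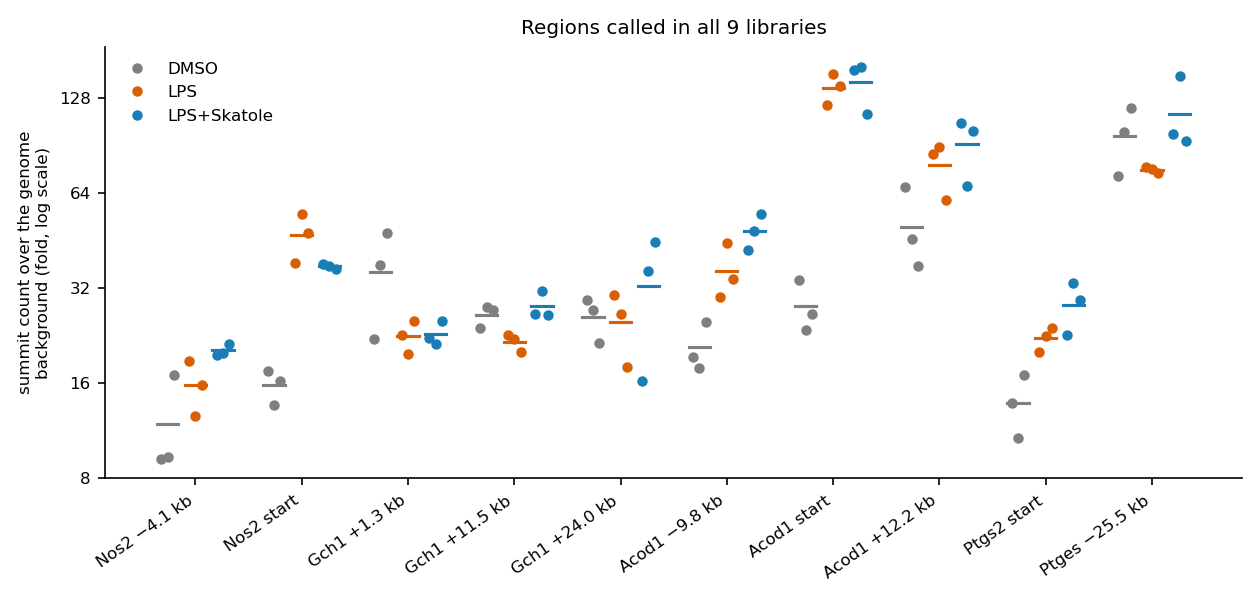
Summit count divided by the genome background of the library (vertical axis, log scale) in the 10 regions called in all 9 libraries (horizontal axis, named by gene and distance from its start), with 1 point per library and a line at the group mean. The Acod1 start goes from 23.6 to 34.0 times in DMSO to 114 to 161 times in the LPS and LPS+Skatole libraries, while the Gch1 regions and the Ptges region overlap or lie lower in LPS than in DMSO.

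**Figure D5:**
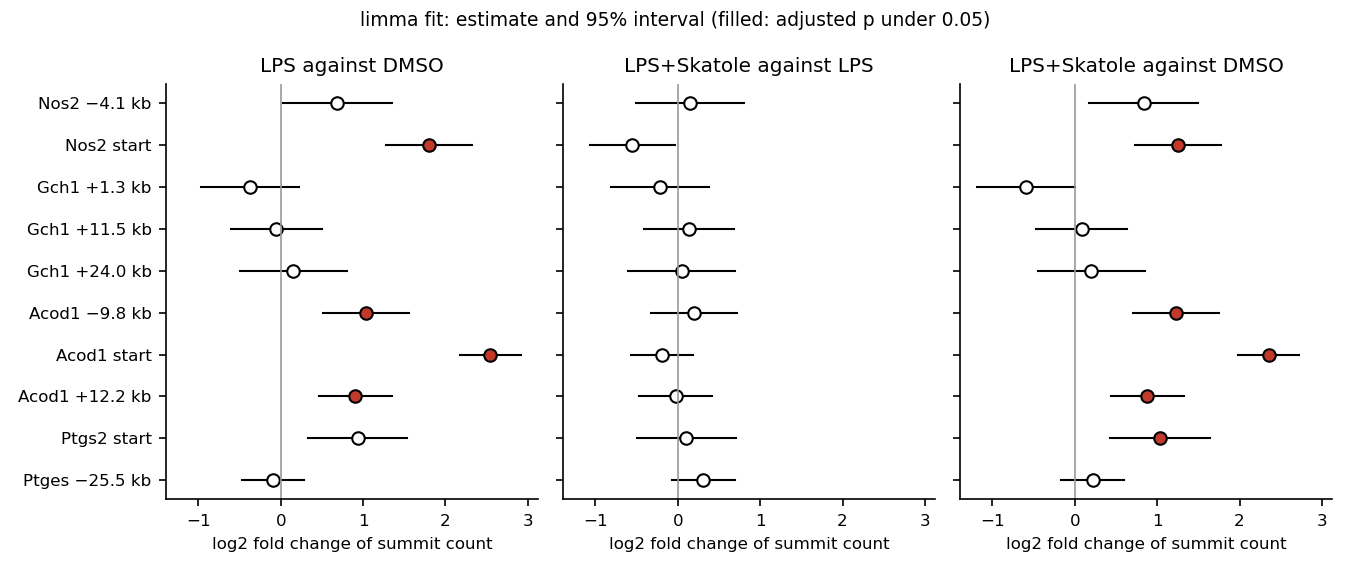
Log2 fold change of the summit count (horizontal axes) by the limma fit in the same 10 regions (rows) for the 3 pairs of groups (panels), with 95% intervals, filled where the adjusted p is under 0.05. The start of Acod1 has the largest estimate in both comparisons with DMSO, 2.55 and 2.36, and no region is filled for LPS+Skatole against LPS.

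A list of 43 other genes of these pathways was counted in the same way, and all 43 had a peak. Higher in LPS than in DMSO without overlap were 7, in LPS+Skatole than in DMSO 19, and in LPS+Skatole than in LPS 5, with 1 lower. Over all genes the same patterns had shares of 12.2%, 25.4%, 9.1% and 0.774%. Tbxas1, thromboxane synthase, had the largest difference between LPS+Skatole and DMSO, from 7, 13 and 9 peaks in DMSO to 18, 15 and 16 in LPS and 24, 22 and 23 in LPS+Skatole. Pla2g4a, the phospholipase that frees arachidonic acid, had 12, 19 and 14 in DMSO, 17, 14 and 15 in LPS and 24, 27 and 25 in LPS+Skatole. Slc7a1, another arginine transporter, had 2, 4 and 3, then 5, 4 and 4, then 10, 6 and 8 peaks. Slc3a2, the heavy chain of several amino acid transporters, was the gene with fewer peaks in LPS+Skatole (8, 9 and 7) than in LPS (11, 10 and 10), after 3, 6 and 7 in DMSO. Ptgs1, the constitutive cyclooxygenase, had 4, 1 and 2 peaks in DMSO, 1, 1 and 1 in LPS and 4, 6 and 6 in LPS+Skatole. Of 63 pairs of a region and a list gene tested by limma, 0 passed in LPS against DMSO and 0 in LPS+Skatole against LPS. At an unadjusted p under 0.05 were 7 and 10 pairs, against 1936 and 1423 of all 13824 regions. In LPS+Skatole against DMSO, 4 pairs were higher, against 4.85% of all regions, and 4 lower, against 2.65%. A region at Pla2g4a, chr1:149946277-149951747, was among those higher (log2 1.02 ± 0.29 SE, adjusted p = 0.0238). The lower ones, named after their values had been seen, were at Nosip, Ddah2, Cs and Sdhb, with the smallest adjusted p of the 8 at Sdhb, a succinate dehydrogenase subunit (chr4:140982135-140984083, log2 -0.96 ± 0.21 SE, limma adjusted p = 0.00413).

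Finally, the genes with the most similar pattern over the 9 libraries were sought among 19504 others, by Pearson correlation of log2(1 + summed summit count over the genome background) in the window. The points share libraries, depth and the step from DMSO to LPS. The closest were Cyb5r3 (r = 0.988) and Aqp9 (r = 0.987) for Nos2, Angptl7 (r = 0.993) and Cfap53 (r = 0.990) for Ass1, and Fpr2 (r = 0.991) and Rgs9 (r = 0.990) for Acod1. For Ptgs2 they were Vrk2 and Zbtb38 (r = 0.970 each), for Ptges Eml1 (r = 0.988) and Slc7a11 (r = 0.984), and for Gch1 Syngr1 (r = 0.966). Slc7a2 had peaks in too few libraries. On this scale the summed level was highest at Acod1 in the treated libraries, 8.50 ± 0.042 in LPS and 8.71 ± 0.059 in LPS+Skatole (SD, n = 3 each), up from 6.63 ± 0.257 in DMSO. At Ptges it went from 7.11 ± 0.329 in DMSO to 7.84 ± 0.123 and 8.25 ± 0.262, and at Nos2 from 5.18 ± 0.221 to 6.32 ± 0.221 and 6.47 ± 0.249. Gch1 stayed between 6.44 and 6.67 in the group means, within the spread of its libraries.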

How the data were processed

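CUT&Tag peak lists of 9 libraries were used, each called separately and deposited in narrowPeak format. Per the labels, the submitters' processing notes name the build mm10 and fastp 0.20.1, HISAT2 2.1.0 and StringTie 2.0, with no role. The peak caller and the handling of duplicates were not given in the sources used here. Each deposited row gives the authors' score, the authors' fold (a ratio of the summit to the local background), the authors' −log10 p and −log10 q, and a summit offset. All lists end at a −log10 p of 5. Summit counts were recovered from the deposited fold and −log10 p, taking the fold as (count + 1)/(background + 1) and p as a Poisson tail, and came out whole (within 0.05) for at least 99.99% of the peaks of every library. The counts are thus estimates, and the total reads are unknown.

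Overlapping peaks of the numbered, X and Y chromosomes were merged into regions where they shared at least 1 bp, and windows were drawn on RefSeq GRCm38.p6, the assembly that mm10 names. limma 3.58.1 (R 4.3.3), with a mean-variance trend, was fitted to log2 summit counts of the 13824 regions called in all 9 libraries, centred on the median, with Benjamini-Hochberg adjustment over them and a threshold of 0.05. For a region and library with several peaks, the highest summit was used. Peak numbers were compared by exact two-sided permutation tests. No column of per-sample values was unmapped. The members, gene lists and tests were chosen with earlier results of these data known. The named genes are the 7 members, regions called in all libraries of at least 1 group, at most 10 list genes without overlap or past the limma threshold, and the 2 genes most like each member, of which 1 is not reported here. Alternatives were windows of 3 and 25 kb, equal list lengths, a −log10 p of 10, thinned depth, summits inside the window, regions from summits within 500 bp, other scalings and units, a replicate block and leaving out each library. Scripts were tested on simulated data. Python 3.11.15 was used.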

Additional observations from a re-analysis of the deposited data

How the results depend on the processing

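The shallower DMSO libraries and the few libraries per group limit these results. Weak sites such as those of Slc7a2 stand near the lowest callable summit, and no antibody-free background was analysed.

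With equal list lengths the ratios of the peak totals were 1.625 (LPS to DMSO), 1.02 (LPS+Skatole to LPS) and 1.65 (LPS+Skatole to DMSO), the joint exact permutation p was 0.0571, 2 members were higher in LPS and 1 in LPS+Skatole than in DMSO, the Gch1 difference was -0.33, 0 regions were gained in LPS+Skatole over LPS and 2 over DMSO, and 0 percentiles were higher in LPS+Skatole than in LPS. With thinned depth the ratios were 1.08 (LPS+Skatole to LPS) and 2.00 (LPS+Skatole to DMSO), 2, 1 and 2 members were higher in the LPS to DMSO, LPS+Skatole to LPS and LPS+Skatole to DMSO comparisons, 0 regions were gained over LPS, limma called 3 members in LPS+Skatole against DMSO, and 0 percentiles were higher and 2 lower in LPS+Skatole than in LPS. Over all genes, 3.09% were higher in LPS and 3.56% in LPS+Skatole than in DMSO with equal list lengths. With thinned depth the shares were 4.74%, 7.31% and 12.9% in the order of comparisons above. The ratios over all genes with thinned depth were 1.23 (LPS+Skatole to LPS) and 1.36 (LPS+Skatole to DMSO). By percentile, 695 of 11651 regions were higher in LPS+Skatole than in LPS with equal list lengths. With thinned depth 1488 of 12232 were higher and 433 lower, and limma called 452 higher in LPS+Skatole than in DMSO. The shares of all regions gained were not counted in these 2 settings, which are built from fewer peaks or fragments. For the other settings the cause was not tested. Without Ptges, chosen after seeing the data, the LPS+Skatole to LPS ratio was 1.29. Regions gained over LPS numbered 2 in windows of 25 kb, where the share over all regions stays 0.507%. They numbered 0 at a −log10 p of 10, where that share was not counted. Scaling to the genome background moved the median of all regions by log2 -0.24 (LPS against DMSO) and 0.24 (LPS+Skatole against LPS) and left 2 limma calls in LPS against DMSO. The fold over the local background left 2 in LPS and 2 in LPS+Skatole against DMSO, where 33 and 213 of all 13824 regions were called higher.

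Signs turned on that fold for Ptges at 30926559 (0.32), Gch1 at 47177291 (0.016) and Acod1 at 103057309 (-0.25) in LPS against DMSO, for Gch1 at 47164826 (-0.25) and 47186578 (0.31) in LPS+Skatole against LPS, and for Gch1 at 47164826 (-0.12) and Acod1 at 103057309 (-0.31) in LPS+Skatole against DMSO. They turned with the genome background scaling for Gch1 at 47164826 in LPS against DMSO (-0.078), and in LPS+Skatole against LPS for Gch1 at 47186578 (0.023) and for Acod1 at 103046129 (0.049) and 103057309 (0.21). With thinned depth they turned for Gch1 at 47177291 in LPS against DMSO (0.058) and Ptgs2 at 150098645 in LPS+Skatole against LPS (-0.43).

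Leaving out 1 library gave 4 to 9 regions gained in LPS against DMSO (9 without LPS replicate 2), 4 to 11 in LPS+Skatole against DMSO (11 without LPS+Skatole replicate 3) and 1 to 3 in LPS+Skatole against LPS, with 0 to 3 lost. Presence in all libraries of a group, or in none, is easier to meet with fewer libraries. The shares of all regions gained or lost were not counted here, so these ranges cannot be read as particular to the members. limma then called 2 to 4 members in LPS against DMSO (2 without DMSO replicate 2 or LPS replicate 1 or 2) and 3 to 5 in LPS+Skatole against DMSO (3 without LPS+Skatole replicate 3). Over all 13824 regions it called 84 to 195 and 404 to 619 higher in these comparisons, against 205 and 671 with all libraries. Members higher without overlap numbered 0 to 2 in LPS+Skatole against LPS, 4 to 5 in LPS and 4 to 5 in LPS+Skatole against DMSO. The shares over all genes were not counted for these peak numbers. Higher percentiles numbered 5 to 8, 1 to 4 and 6 to 8 in the LPS to DMSO, LPS+Skatole to LPS and LPS+Skatole to DMSO comparisons. Over all 13824 regions they numbered 2801 to 4168, 1960 to 3115 and 4338 to 5676 in the same order. The ratios ranged from 2.06 to 2.46, 1.13 to 1.23 and 2.45 to 2.92. Log2 values that changed sign ranged in LPS against DMSO from -0.29 to 0.072 (Ptges at 30926559), -0.026 to 0.40 (Gch1 at 47164826) and -0.12 to 0.021 (Gch1 at 47177291), in LPS+Skatole against LPS from -0.25 to 0.48 (Gch1 at 47164826), -0.012 to 0.25 (Ptgs2 at 150098645) and -0.22 to 0.19 (Acod1 at 103057309), and in LPS+Skatole against DMSO from -0.10 to 0.63 (Gch1 at 47164826).

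The replicate numbers did not pair the libraries: deviations of libraries with the same number correlated at -0.0096 to 0.0141. With a replicate block limma called 4, 0 and 5 members in the LPS to DMSO, LPS+Skatole to LPS and LPS+Skatole to DMSO comparisons, and over all regions 186 higher and 48 lower, 6 higher and 13 lower, and 637 higher and 344 lower.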
